A study of Mus musculus with 4 samples.

Results

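The genes described are 10 genes of cellular iron handling (Tfrc, Fth1, Ftl1, Slc40a1, Slc11a2, Hmox1, Ireb2, Aco1, Fbxl5 and Cp), followed through MC38 cells with and without IFN-γ under normoxic and hypoxic conditions. They were chosen by name for their roles in iron uptake, storage, export and heme breakdown, and all 10 were found among the 27179 genes of the count table. Of these, Hmox1, which encodes the heme-degrading enzyme heme oxygenase-1, stood apart: hypoxia raised it 1.71-fold without and 1.96-fold with IFN-γ, while the other genes with more than a few counts differed between the highest and the lowest library by at most 1.24-fold, apart from the weakly counted Cp.

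MC38 is a mouse colon carcinoma cell line of wild-type genotype, and the study sequenced 1 library of poly-A RNA for each of 4 conditions. The cells were untreated at 20% oxygen (control, normoxia), untreated at 1.5% oxygen (control, hypoxia), or given IFN-γ, a cytokine released by activated T cells, at either oxygen level. The methods give 5 ng/mL IFN-γ for 24 h as the usual treatment, and the time spent in hypoxia is not given in the sources used here. No condition has a replicate, so every difference is between single cultures, and fewer expressing cells cannot be told apart from less RNA per cell. Library totals lay between 34302971 and 34537939 counts. Both stimuli were visible in genes known to respond to them, since Car9 went from 422 to 1733 counts with hypoxia and Gbp2 from 597 to 23153 with IFN-γ. Of 8 epithelial marker genes, 4 (Epcam, Cdh1, Krt18 and Cdx2) had at most 3 counts in every library. Krt8 had 48 to 90, Krt20 12 to 22, Vil1 7 to 17 and Krt19 0 to 18 counts, so all 8 were weakly counted or absent. The 5 fibroblast markers together had 1255 to 1528 counts, most of them from Pdgfra (1077 to 1341). The macrophage markers Adgre1 and C1qa were at 0 in all 4 libraries, while Cd68 had 170 to 236 and Lyz2 69 to 96 counts. The 7 macrophage markers together had 310 counts without and 317 with IFN-γ in normoxia, and 361 without and 280 with it in hypoxia, and their part in the Hmox1 result below was not tested.

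Cells take up iron bound to transferrin through the transferrin receptor (Tfrc), move it out of the endosome through DMT1 (Slc11a2), store it in ferritin cages built of heavy (Fth1) and light (Ftl1) chains, and release it through ferroportin (Slc40a1) with the help of copper oxidases such as ceruloplasmin (Cp). Heme oxygenase-1 opens the heme ring and sets its iron free. The proteins IRP1 (Aco1) and IRP2 (Ireb2) sense iron and bind hairpins in mRNAs, the iron-responsive elements, and FBXL5 marks IRP2 for destruction when iron is plentiful. A hairpin in the 5′ untranslated region lets the IRPs block translation, whereas IRPs bound to the hairpins in the 3′ untranslated region of Tfrc protect its mRNA from decay. The mRNA level of Tfrc, unlike that of the ferritins, is therefore known to respond to the iron supply, falling when iron is plentiful.

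The hairpins are shown because they are what the proteins encoded by Aco1 and Ireb2 bind in the mRNAs of other members. They were searched on the sense strand of annotated untranslated regions (GENCODE M21, GRCm38) as a C, 5 bases of any kind, the letters CAGTG, a base other than G and 5 bases that all pair with the 5 bases after the opening C (G paired with T was allowed). Of the 10 genes 4 held such a match (in Slc11a2, some transcripts of which carry a known element, none was found), against 0.619% of the 21479 genes with an annotated untranslated region. Elements that depart from this pattern are missed, so the stretches below need not be all those of a gene. Each stretch of 30 bases is written 5′ to 3′ with the unpaired C and the 6-base loop in capitals.
Fth1, 5′ untranslated region, chr19:9982732-9982761, plus strand: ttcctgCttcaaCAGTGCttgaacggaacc
Ftl1, 5′ untranslated region, chr7:45459778-45459807, minus strand: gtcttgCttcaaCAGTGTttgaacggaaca
Slc40a1, 5′ untranslated region, chr1:45925464-45925493, minus strand: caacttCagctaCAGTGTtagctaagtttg
Tfrc, 3′ untranslated region, chr16:32631219-32631248, plus strand: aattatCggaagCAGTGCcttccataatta
Tfrc, 3′ untranslated region, chr16:32631598-32631627, plus strand: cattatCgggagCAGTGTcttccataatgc
Tfrc, 3′ untranslated region, chr16:32631663-32631692, plus strand: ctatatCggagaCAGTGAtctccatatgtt
Tfrc, 3′ untranslated region, chr16:32631710-32631739, plus strand: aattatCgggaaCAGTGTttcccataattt

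Each gene was tested for the effect of IFN-γ and of hypoxia in an additive model over the 4 libraries (edgeR's quasi-likelihood test), together with all 13580 genes that passed a filter on low counts. The filter was passed by 9 of the 10 genes and not by Slc40a1. Without replicates the spread in this model is departure from additivity, pooled over the genes. A gene with a large departure of its own can therefore still have a small standard error. The adjusted p-values cannot replace a test of replicate cultures. Changes between 2 single libraries are log2 ratios of CPM (counts scaled to library size, with TMM factors) with 0.5 counts added, and their 95% intervals (exact, Clopper-Pearson) cover counting error only.

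For hypoxia, 1 of the 9 tested genes was raised (Hmox1) and 0 were lowered, where 8.21% of all tested genes were raised and 6.83% were lowered. For IFN-γ, 1 was raised (Hmox1) and 1 was lowered (Aco1), against 4.76% and 1.10% of all tested genes. The median log2 change of the 9 genes was 0.07 with hypoxia and -0.04 with IFN-γ, beside 0.00 and -0.01 over all tested genes. The median size of the change, without its sign, was 0.11 with hypoxia and 0.07 with IFN-γ, beside 0.12 and 0.08 over all tested genes. Between single libraries a change of at least 1.5-fold was seen with IFN-γ for 0 of the 9 genes in normoxia and for 1 (Cp) in hypoxia, against 9.65% and 8.95% of all tested genes. With hypoxia it was seen for Hmox1 alone both without and with IFN-γ, against 9.35% and 9.46%. Counting intervals left out 0 for 3 and 6 of the 9 genes with IFN-γ in normoxia and hypoxia, against 34.9% and 37.7% of all tested genes. They did so for 7 and 7 with hypoxia, without and with IFN-γ, against 45.3% and 45.8%. Such an interval narrows as the count grows, so highly counted genes leave out 0 even at small changes. With hypoxia in IFN-γ treated cells these included Tfrc at 0.03 and Fth1 at 0.05 (log2). These shares therefore do not compare the size of the changes.

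**Figure D1:**
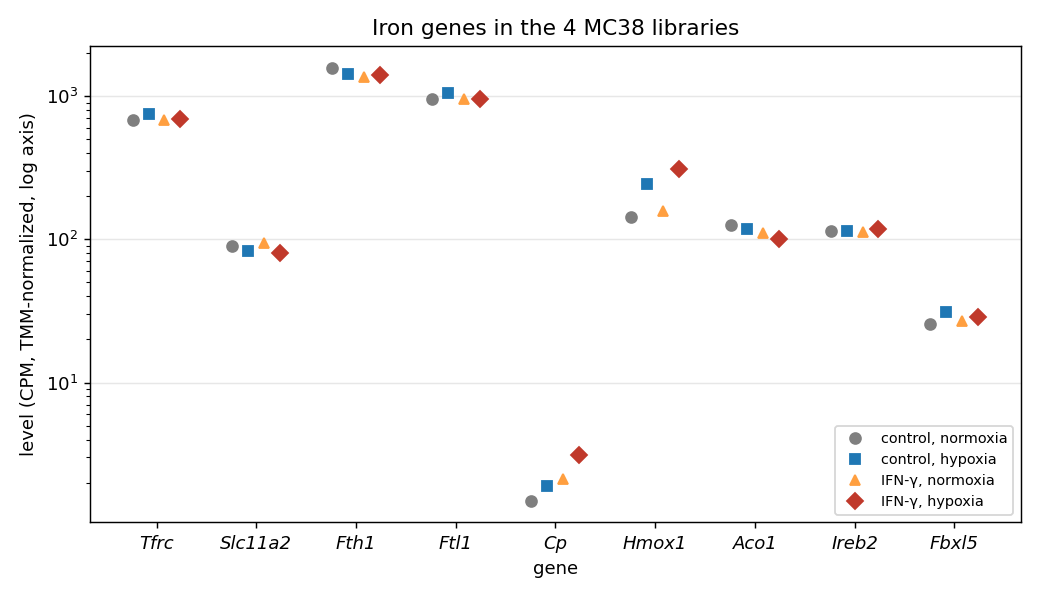
Level of each iron gene in the 4 libraries, in CPM after TMM scaling on a log axis, with 1 point per library. Hmox1 lies at 142 and 157 CPM in the normoxic and at 243 and 308 CPM in the hypoxic libraries, while the points of Tfrc, Slc11a2, Fth1, Ftl1, Aco1, Ireb2 and Fbxl5 lie close together. Slc40a1 had at most 2 counts and is not drawn.

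Among the genes, the ferritin chains were by far the most abundant. Per kilobase of the principal annotated transcript, the mean level over the libraries was 1012 CPM for Ftl1 and 963 CPM for Fth1. The ranges over the libraries, 983 to 1088 for Ftl1 and 909 to 1057 for Fth1, overlapped, so these 2 genes could not be ordered. Over all annotated exons merged, which is a longer stretch, Ftl1 was at 731 and Fth1 at 415 CPM per kilobase. Tfrc followed at 144 and Hmox1 at 135 CPM per kilobase, again with overlapping ranges. Aco1 (29.7), Slc11a2 (28.6), Ireb2 (19.9) and Fbxl5 (9.82) were lower on the same scale, and Cp reached 0.538. The ranges of Aco1 and Slc11a2 overlapped as well. The 10 genes together took between 0.347% and 0.382% of each library's counts.

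Hmox1 (NCBI gene 15368, chr8:75093618-75100593 in GRCm38) had 4922 counts without and 5388 with IFN-γ in normoxia, and 8393 without and 10550 with it in hypoxia. Both hypoxic libraries were thus above both normoxic libraries, and the library with both stimuli was the highest. The log2 change with hypoxia was 0.77 without IFN-γ (95% interval 0.72 to 0.82) and 0.97 with it (95% interval 0.92 to 1.02). Of all tested genes, 96% changed less upward in the pair without IFN-γ and 97.4% in the pair with it. In the additive fit hypoxia raised Hmox1 with a log2 change of 0.87 (standard error, SE, 0.0562, Benjamini-Hochberg adjusted p = 2.79e-51, edgeR), which ranked 280 from the highest of the 13580 genes. This call held in all 6 alternative fits, with adjusted p-values from 2.18e-26 to 0.0471 by edgeR or DESeq2.

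The change of Hmox1 with IFN-γ was smaller. Its log2 change was 0.14 under normoxic (95% interval 0.09 to 0.20) and 0.34 under hypoxic conditions (95% interval 0.30 to 0.38), which is 1.11-fold and 1.27-fold. The additive estimate was 0.25 (SE 0.0559, Benjamini-Hochberg adjusted p = 0.000321, edgeR's quasi-likelihood test). Only 3 of 6 alternative fits kept the call, and their adjusted p by edgeR or DESeq2 ran from 0.00442 to 0.999. The IFN-γ change in hypoxia exceeded that in normoxia by 0.20 (95% interval 0.13 to 0.27 from counting error). Of the 10443 genes counted at least 100 times in each library, 34.5% had such a difference outside their counting interval, and 88% had a difference below that of Hmox1. The difference itself was not tested, since no replicates are at hand.

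**Figure D2:**
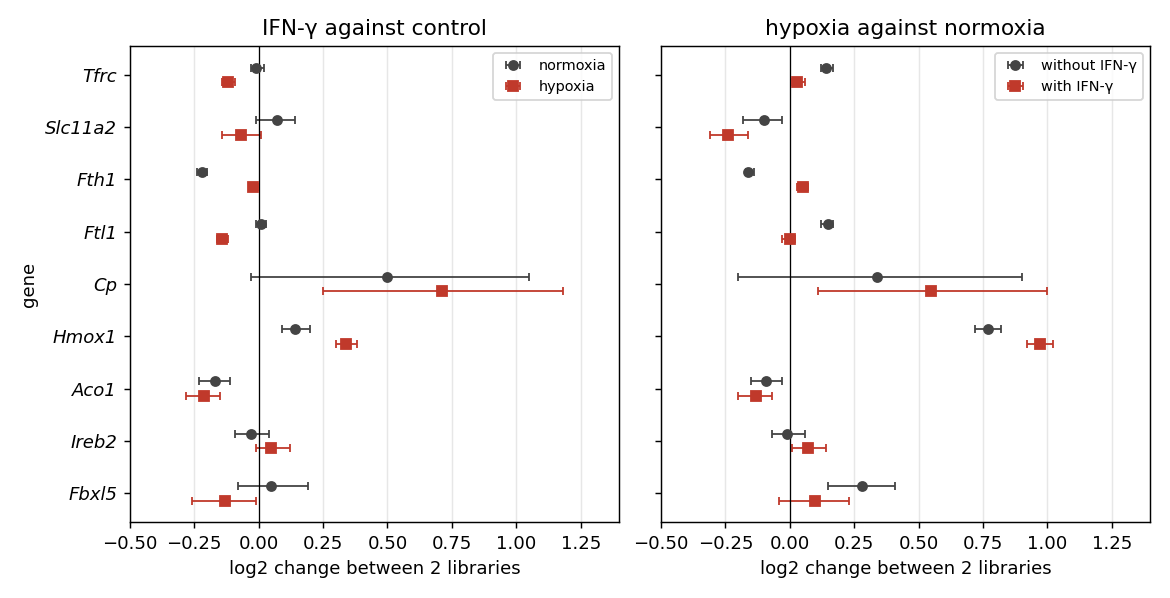
Log2 change between 2 libraries for each gene, with IFN-γ (left, under normoxic and hypoxic conditions) and with hypoxia (right, without and with IFN-γ). Bars are 95% Clopper-Pearson intervals from counting error. The hypoxia changes of Hmox1 at 0.77 and 0.97 lie to the right of all others, and the intervals of Cp, with 52 to 107 counts, are the widest.

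Of the uptake genes, Tfrc (gene 22042, chr16:32608896-32632794) had 23620 counts without and 23285 with IFN-γ in normoxia, and 26044 without and 23771 with it in hypoxia. The control library in hypoxia was the highest, and the other 3 lay close together. With hypoxia its log2 change was 0.14 without IFN-γ (95% interval 0.12 to 0.17) and 0.03 with it (95% interval 0.01 to 0.06). The additive estimate of 0.09 (SE 0.0483) did not pass the threshold, with an adjusted p of 0.237 from edgeR. Slc11a2, which carries ferrous iron across membranes, had 3101 and 3214 counts in the normoxic control and IFN-γ libraries and 2883 and 2726 in the hypoxic ones. Both hypoxic libraries were thus below both normoxic libraries, and the change was -0.10 (log2) without (95% interval -0.18 to -0.03) and -0.24 with IFN-γ (95% interval -0.31 to -0.16). The additive estimate was -0.17 (SE 0.0646), which missed the threshold (edgeR, Benjamini-Hochberg adjusted p = 0.0555). Counts per gene cannot separate its transcripts with and without a known iron-responsive element.

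Neither ferritin chain passed the test for either stimulus. Fth1 (gene 14319, chr19:9980600-9985111), the chain with the ferroxidase site, had 54677 counts without and 46554 with IFN-γ in normoxia, and 48995 without and 48054 with it in hypoxia. The untreated normoxic library was the highest and the other 3 lay close together. The hypoxia change of Fth1 was -0.16 (log2) without IFN-γ (95% interval -0.17 to -0.14) and 0.05 with it (95% interval 0.03 to 0.07), opposite in sign. Its change with IFN-γ was -0.22 under normoxic (95% interval -0.24 to -0.20) and -0.02 under hypoxic conditions (95% interval -0.03 to 0.00). Neither additive estimate passed the threshold in edgeR's quasi-likelihood test, with adjusted p-values of 0.13 for IFN-γ and 0.485 for hypoxia.

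Ftl1 (gene 14325, chr7:45457944-45459886) had 32954 and 32831 counts in the normoxic control and IFN-γ libraries and 36404 and 32721 in the hypoxic ones. Here the control library in hypoxia was the highest, as for Tfrc. Its log2 change with hypoxia was 0.15 without IFN-γ (95% interval 0.12 to 0.17) and -0.00 with it (95% interval -0.03 to 0.02). The ratio of Fth1 to Ftl1 counts was 1.66 in the untreated normoxic library and between 1.35 and 1.47 in the others. Ftl1 is uncertain because 64.1% of its 31-base words also occur in other annotated genes, most of all in the pseudogenes Ftl1-ps1, Gm15590 and Ftl2-ps. For Fth1 this share was 3.24%. In the table a different copy, Ftl1-ps2, had 7 to 25 counts, so hardly any reads were assigned to it. This says nothing of reads from Ftl1-ps1, Gm15590 or Ftl2-ps.

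Of the export genes, Slc40a1, which encodes the iron exporter ferroportin, had 2 counts in the control library under hypoxic conditions and 0 in the other 3. A library of this depth cannot tell up to 3 counts from absence, which is 0.0869 to 0.0875 CPM, so no change of Slc40a1 was detectable. Its hairpin above therefore belongs to an mRNA that was hardly counted in these cells. Cp had 52 and 73 counts in the normoxic control and IFN-γ libraries and 66 and 107 in the hypoxic ones. The library with both stimuli was again the highest. The log2 change of Cp with IFN-γ was 0.50 under normoxic (95% interval -0.03 to 1.05) and 0.71 under hypoxic conditions (95% interval 0.25 to 1.18), and the additive estimate of 0.61 (SE 0.256) had an adjusted p of 0.186 from edgeR. Among the related genes Hephl1 had at most 4 counts and Heph 6 to 12.

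Of the iron sensors, Aco1 (gene 11428, chr4:40143265-40199009), which encodes IRP1, had 4341 counts without and 3817 with IFN-γ in normoxia, and 4065 without and 3474 with it in hypoxia. Both IFN-γ libraries were below both control libraries. Its log2 change with IFN-γ was -0.17 in normoxia (95% interval -0.23 to -0.11) and -0.21 in hypoxia (95% interval -0.28 to -0.15). The additive estimate was -0.19 (SE 0.0612, Benjamini-Hochberg adjusted p = 0.0314, edgeR's quasi-likelihood test). This call was kept in 1 of 6 alternative fits, with adjusted p-values from 0.0485 to 1 by edgeR or DESeq2. Ireb2, which encodes IRP2, had 3964 and 3850 counts in the normoxic and 3936 and 4046 in the hypoxic control and IFN-γ libraries, the narrowest range of the genes at 1.05-fold. Fbxl5, the adaptor of the ligase that removes IRP2, had 892 and 916 counts in the normoxic and 1081 and 978 in the hypoxic libraries. Its additive change with hypoxia was 0.19 (SE 0.0827, Benjamini-Hochberg adjusted p = 0.109, edgeR's quasi-likelihood test).

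The other genes of iron and heme handling were taken from lists by role, of which 98 genes were found in the table and 83 were tested. Hypoxia raised 2 of these (2.41%, against 8.21% of all tested genes) and lowered 10 (12%, against 6.83%), so the share in either direction was 14.5% against 15.0%. IFN-γ raised 4 (4.82%, against 4.76%) and lowered 0 (against 1.10%), 5.86% of all tested genes being called in either direction. The median log2 change of the 83 genes was -0.05 with hypoxia and -0.02 with IFN-γ.

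The IFN-γ calls included both mitoferrins, the carriers that bring iron into mitochondria. Slc25a37 (mitoferrin-1) had 3032 counts without and 4263 with IFN-γ in normoxia, and 2526 without and 4054 with it in hypoxia, 1.42-fold and 1.62-fold higher with IFN-γ. The additive estimate was 0.60 (SE 0.0629, Benjamini-Hochberg adjusted p = 1.38e-19, edgeR's quasi-likelihood test), and all 6 alternative fits kept the call. Slc25a28 (mitoferrin-2) went from 1527 to 2015 and from 1358 to 1979 counts, with an additive log2 change of 0.48 (SE 0.0732, Benjamini-Hochberg adjusted p = 1.86e-09, edgeR), kept in 5 of 6 alternative fits. Both IFN-γ libraries lay above both control libraries for each mitoferrin. Keap1, whose protein holds back NRF2, an activator of Hmox1 and ferritin genes, rose with IFN-γ from 1619 to 2067 and from 1617 to 2080 counts, a log2 change of 0.37 (adjusted p = 9.33e-06 from edgeR). The metalloreductase gene Steap2 rose by 0.23 (adjusted p = 0.0142 from edgeR). The calls of Keap1 and Steap2 were kept in 4 and 3 of the 6 alternative fits. Neither Nfe2l2, which encodes NRF2, nor Bach1, which encodes a repressor of Hmox1, passed the threshold for either stimulus.

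Among the 13 tested genes of uptake and reduction, hypoxia lowered Slc39a14, a transporter of iron and zinc, from 2158 to 1701 counts without and from 2043 to 1589 with IFN-γ, a log2 change of -0.35 (edgeR, adjusted p = 2.94e-05). The endosomal iron reductase gene Steap3 fell by 0.30 and its relative Steap1 by 0.27 on the log2 scale, with adjusted p-values of 0.00031 and 0.00248 from the same edgeR test. Lrp1, the receptor for heme bound to hemopexin, rose by 0.56 (adjusted p = 6e-10 from edgeR), from 946 to 1140 counts without and from 722 to 1305 with IFN-γ. Of these 13 genes 23.1% were thus lowered and 7.69% raised, in a list of few genes, against 6.83% and 8.21% of all tested genes. Of 14 heme synthesis genes 3 were lowered by hypoxia, among them Alad (-0.28) and the mitochondrial glycine carrier gene Slc25a38 (-0.24), and 0 were raised. That is 21.4% lowered, in a list of few genes, against 6.83% of all tested genes. Of 32 genes of mitochondrial iron and iron-sulfur assembly, 3 were lowered, among them Fdx2 (-0.30) and Ndor1 (-0.20), and 1 was raised (Iba57, 0.39). These shares, 9.38% lowered and 3.12% raised, stand against 6.83% and 8.21% of all tested genes. The additive log2 change of the iron chaperone gene Pcbp2 with hypoxia was -0.18. Between single libraries it was -0.30 without and -0.07 with IFN-γ. Ndor1 and Pcbp2 share 37% and 36.1% of their 31-base words with other annotated genes and are uncertain for this reason. Of the 6 alternative fits, 4 kept the calls of Lrp1, Slc39a14 and Steap3, 3 those of Steap1, Alad, Fdx2, Iba57 and Pcbp2, and 0 those of Ndor1 and Slc25a38. The 4 tested genes of heme breakdown beside Hmox1 (Hmox2, Blvra, Blvrb and Por) had no call for either stimulus. Their log2 changes lay between -0.14 and 0.03. Of all tested genes 15.0% were called for hypoxia and 5.86% for IFN-γ, so the lack of a call in 4 genes says little. Hmox2 is uncertain too, with 46% shared words.

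**Figure D3:**
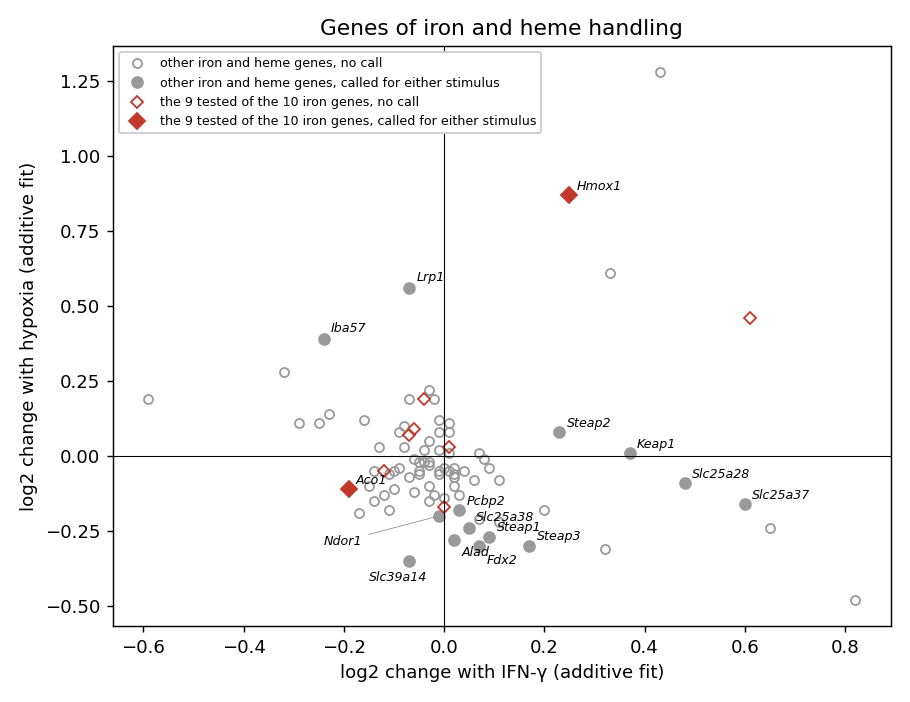
Log2 change with IFN-γ (horizontal) against log2 change with hypoxia (vertical) in the additive fit, for 9 of the 10 iron genes (diamonds) and 81 of the 83 other tested genes of iron and heme handling (circles). Filled and named symbols passed an adjusted p of 0.05 for at least 1 stimulus. Hmox1 lies at 0.25 and 0.87, and Slc25a37 at 0.60 and -0.16. The open symbols with a change over 0.5 in size are genes with at most 107 counts in any library.

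The genes most like Hmox1 over the 4 libraries were sought by the Euclidean distance of log2 CPM values after subtraction of each gene's mean, among 10442 other genes counted at least 100 times in each library. The nearest was the inositol phosphate kinase gene Itpk1 at a distance of 0.0115, with 1310, 2216, 1438 and 2802 counts in the control normoxic, control hypoxic, IFN-γ normoxic and IFN-γ hypoxic libraries. It was followed by Tent5a (0.147), the hexokinase gene Hk1 (0.186), Gng11 (0.186) and Dipk2a (0.221). In all 5 genes both hypoxic libraries lay above both normoxic libraries and the library with both stimuli was the highest. This order follows from their choice by nearness to Hmox1 and is no separate result. With 4 libraries such a distance is a description of shape alone.

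**Figure D4:**
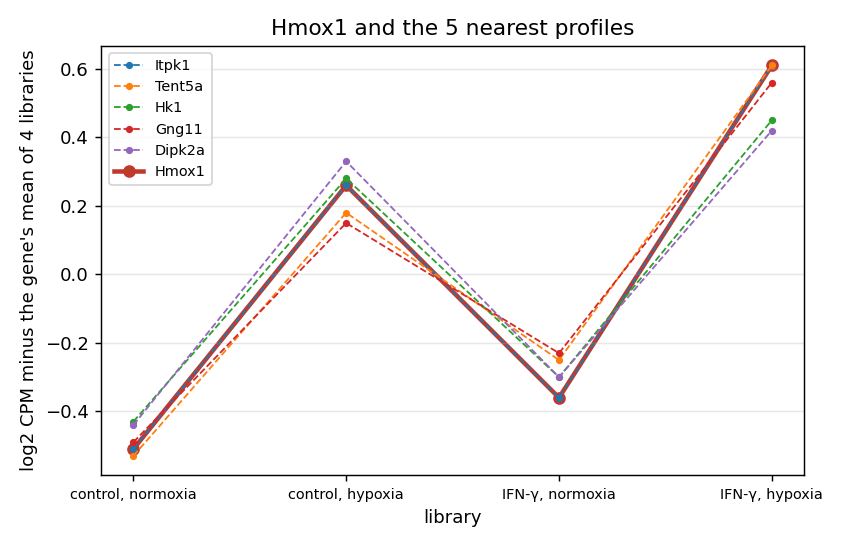
Log2 CPM of Hmox1 and of the 5 nearest genes in each of the 4 libraries, after subtraction of the gene's own mean over the libraries. Lines join the values of 1 gene and stand for no course in time. Hmox1 runs from -0.51 in the untreated normoxic library to 0.61 with both stimuli, and Itpk1 follows it within 0.01.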

How the data were processed

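RNA-seq of MC38 cells was performed with 1 strand-specific poly-A library per condition, read as paired ends of 100 bp. Reads were aligned with HISAT2, and the submitters' processing notes name featureCounts and the build mm10. Versions, annotation and the handling of reads that match several genes are not given in the sources used here. What the authors deposited is a table of raw read counts by gene, whole numbers that were not normalized. Gene IDs were given symbols from an NCBI RefSeq table for GRCm38.p6, which matched 25275 of 27179 IDs, and this table gave the gene coordinates.

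The counts were tested with edgeR 4.0.16 (R 4.3.3), with TMM factors (0.993 to 1.01), edgeR's filter at its minimum of 10 counts, oxygen and IFN-γ as additive terms and Benjamini-Hochberg adjustment over all 13580 genes tested at 0.05. The standard error is the log2 change divided by the square root of F. The common dispersion was 0.00222, a coefficient of variation of 4.71%. The script was run on simulated counts with additive effects and the dispersion of this fit. Such counts hold no departure from additivity and no spread between cultures beyond that dispersion, so the run does not test the calls against these. Intervals of differences between changes come from Poisson error. Alternatives were DESeq2's size factors, DESeq2's Wald test (DESeq2 1.42.0), other filters, the other stimulus left out, a coefficient of variation set at 0.1, a fold of 1.5 in addition, total counts and 5 added counts.

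The 10 genes, the lists and the tests were chosen with earlier results of these data known. Named were the 10 genes, up to 4 called genes per list and stimulus with the largest change, and the 5 genes nearest to the member with the widest range. Some genes that this rule names are not reported here. Genes named as having no call, or for their low counts, were chosen after their values were seen. Shared 31-base words and transcript lengths came from GENCODE M21, and genes with at least 20% shared words were treated as uncertain. Library depth (34302971 to 34537939 counts) limits precision mostly for the weakly counted genes, and no p-value here measures the spread between replicate cultures.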

Additional observations from a re-analysis of the deposited data

Results flagged for a closer look

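Among the 10 genes and the called other genes, 3 had a change between 2 libraries of opposite sign in the 2 pairs compared. Each of these changes had a 95% counting interval that left out 0. Fth1 changed with hypoxia by -0.16 without IFN-γ and by 0.05 with it. Lrp1 changed with IFN-γ by -0.38 under normoxic and by 0.21 under hypoxic conditions, from 946 to 722 and from 1140 to 1305 counts. Pcbp2 changed with IFN-γ by -0.08 under normoxic and by 0.15 under hypoxic conditions. These differences were not tested, because each condition has 1 library. Counting intervals left out 0 for between 34.9% and 45.8% of all tested genes in the 4 pairs. That share is for 1 pair at a time. How many of all tested genes had such opposite signs was not counted, so it is not known whether 3 is unusual.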

How the results depend on the processing

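Hmox1 was the 1 gene of the 10 called for hypoxia in every alternative run. For IFN-γ, where 2 of the 9 were called, 1 was left without a filter on low counts and 1 with at least 10 counts in every library, and 0 by DESeq2's Wald test, with the other stimulus left out of the model, with a coefficient of variation set at 0.1 or with a fold of 1.5 in addition. Of the other iron and heme genes, the 4 called for IFN-γ became 3 by DESeq2's Wald test and 1 without hypoxia in the model. They became 2 with the set coefficient of variation and 1 with the added fold. The 12 called for hypoxia became 2 by DESeq2's Wald test, 0 with IFN-γ left out of the model, 1 with the set coefficient of variation and 0 with the added fold, and ran from 8 to 10 in the other fits. Over single genes, 148 of 203 values under an alternative fit stayed on the same side of the threshold and 55 no longer passed it. All 55 belonged to changes called in the main fit. The 148 include the changes without a call, none of which passed in any alternative, so 148 of 203 overstates how well the calls held. The sign changed in 5 of the 203 values, all of them the uncalled IFN-γ change of Slc11a2, which lay between -0.00 and 0.01, and in 0 called values. Of 72 changes between 2 libraries under other scaling or pseudocount, 70 stayed within their counting interval, and 2 moved beyond it with total counts, the IFN-γ change in normoxia of Fth1 to -0.24 and that of Ftl1 to -0.02. The sign changed in 2 of the 72, both of Ftl1 with counting intervals that held 0. The cause of these losses was not tested. No paired analysis was possible because each condition has 1 library and so no replicate number to pair by, although the additive model does compare each stimulus within both levels of the other, and leaving the other stimulus out is the fit without that. Slc40a1, and Cp in part, are limited by depth.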
